A study of Mus musculus with 11 samples.

Results

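Wt1, Msln, Muc16, Upk3b, Upk1b, and Lrrn4 are 6 genes of the mesothelium and of the ovarian surface epithelium, chosen by name and not by their level. All 6 were among the 28284 genes counted by RNA sequencing in 11 OvTrpMyc cell lines. The question was whether the lines that carry Wt1 transcripts also carry the rest of the set. The lines came from mice heterozygous for the Ovgp1-Trp53-R270H-Myc transgene on a C57BL/6 background, in which the Ovgp1 promoter, active in the nonciliated epithelium of the oviduct, drives a dominant-negative p53 together with HA-tagged Myc from the Trp53 locus. The mice shared this genotype, while the lines grown from them had lost the wild-type Trp53 allele by the study's genotyping, none was treated, and no line from a mouse without the transgene was analysed here. There was 1 library for each line and 7 mice in all: 7 lines were from an ovary (F318 ROV, F318 LOV, F319 ROV, F326 ROV, F339 ROV, F364 ROV, and F364 LOV), 2 were from a uterus (F319 uterus and F333 uterus), 1 was from a splenic tumor of mouse F326, and 1 was from a peritoneal tumor of mouse F361. The ovary dissections included the fallopian tube and the uterus lines came from its middle section. The ages of the 7 mice are not given in the sources used here. Cells were minced tissue outgrowths cultured in RPMI and used at a low passage, so a line can hold more than 1 cell type. The methods state that the F361 peritoneal tumor line had lost expression of the mutant p53, although RNA reads covered the mutated codon. The p53 state of that line is thus not settled by the genotyping alone. With RNA from whole cultures, fewer cells of a type and less RNA per cell cannot be told apart.

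The mesothelium is the flat epithelium that lines the peritoneal cavity, and it continues over the ovary as the ovarian surface epithelium. Both derive from the coelomic epithelium of the embryo, where the zinc finger transcription factor WT1 is a standard marker. In the gonad WT1 is not limited to the surface, since supporting cells such as granulosa cells also make it. Msln encodes mesothelin, a surface glycoprotein anchored by GPI, and Muc16 encodes the large membrane mucin that carries the CA125 epitope and binds mesothelin. Upk3b and Upk1b encode uroplakins, membrane proteins best known from the urothelium and used as mesothelial markers, and Upk1b is a tetraspanin. Lrrn4 encodes a leucine-rich repeat membrane protein that is also used as a mesothelial marker. Together these 5 genes stand for the mesothelial program beside Wt1.

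The promoters are shown because Upk3b and Lrrn4 were high in the same line. RefSeq sequences on GRCm38.p6 were at hand for 3 of the 6 genes, and those of Wt1, Msln, and Upk1b were not analysed here. Each run below is the 250 bases before the RefSeq start, 5′ to 3′ on the strand of the gene, and capitals mark GGAATG, the core motif of the TEAD factors, or its reverse complement. Lrrn4 lies on the minus strand (chr2:132880863-132881112), Upk3b on the plus strand (chr5:136038246-136038495), and Muc16 on the minus strand (chr9:18674604-18674853).
Lrrn4: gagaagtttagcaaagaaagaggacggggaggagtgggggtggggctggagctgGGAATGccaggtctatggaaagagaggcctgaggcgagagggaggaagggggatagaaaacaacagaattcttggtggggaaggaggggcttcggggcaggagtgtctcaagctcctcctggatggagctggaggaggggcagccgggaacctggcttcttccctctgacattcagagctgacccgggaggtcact
Upk3b: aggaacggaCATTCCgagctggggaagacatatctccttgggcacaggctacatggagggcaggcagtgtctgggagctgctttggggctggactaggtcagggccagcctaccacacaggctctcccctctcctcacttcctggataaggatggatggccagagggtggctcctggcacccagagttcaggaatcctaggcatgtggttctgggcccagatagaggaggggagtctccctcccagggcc
Muc16: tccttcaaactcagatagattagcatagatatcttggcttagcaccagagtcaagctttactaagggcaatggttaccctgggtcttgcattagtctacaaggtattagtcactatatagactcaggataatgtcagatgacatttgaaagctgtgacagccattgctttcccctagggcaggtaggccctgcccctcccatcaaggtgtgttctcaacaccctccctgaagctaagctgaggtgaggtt
The TEAD motif stood 196 bases before the start of Lrrn4 and 241 bases before the start of Upk3b, and was not found in the Muc16 window. The sequence after the RefSeq start was found in an annotated transcript for Lrrn4 and Upk3b and not for Muc16. The annotated Muc16 gene ends at chr9:18674530, so the Muc16 window is less certain. Among 32851 promoter windows of the same length, 12.6% held it on either strand. None of the 3 windows held the WT1 motif GCGTGGGNG, present in 1.65% of all windows, the GATA motif AGATAA (9.99%), the SF-1 motif CAAGGTCA (1.33%), or a TATA box written as TATAAA (12.4%). Both strands were searched for each motif, and no match of 1 motif overlapped another. The G and C share was 59.2% for Lrrn4, 60.8% for Upk3b, and 46.4% for Muc16, against a median of 52.4% over all windows. A match is a description of letters and not a measured binding site.

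The libraries held 13580525 to 27044598 counts, with a median of 17517765, so that 3 counts, taken as the limit of detection, correspond to levels of 0.111 to 0.221 CPM. CPM stands for counts of a gene per 1000000 counts of its library. A gene was called present in a line at 1 CPM or more. Intervals are 95% Wilson intervals and cover counting error only, and 78.5% of all counts from 1 to 10 were even numbers, so the counts may hold both mates of a pair, which would make these intervals too narrow. The libraries numbered 1 to 7 in the labels stood apart from 8 to 11. Skeletal muscle fiber genes took 6.41% to 12.1% of counts in the first and 0.144% to 1.13% in the second, with all 18 genes of that list in the table called higher, against 29.9% of all genes tested, and macrophage genes summed to 40.6 to 100.1 CPM against 8.38 to 18.3 CPM. Libraries 1 to 7 were 5 ovary lines and both tumor lines, and libraries 8 to 11 were both uterus lines, F318 LOV, and F339 ROV.

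Wt1 had 3 high lines, 3 low lines, and 5 lines without detectable transcript. Its level was 72.7 CPM in F319 ROV (95% Wilson interval 69.3 to 76.3), 67.2 CPM in F326 ROV (63.1 to 71.4), and 65.6 CPM in F364 ROV (61.8 to 69.8). It was 5.85 CPM in F318 LOV (4.94 to 6.93), 5.70 CPM in F364 LOV (4.63 to 6.999), and 4.57 CPM in F318 ROV (3.67 to 5.68). Wt1 had 0 counts in F339 ROV, F319 uterus, F333 uterus, and the F361 peritoneal tumor line, and 2 counts in the F326 splenic tumor line, all at or under the limit of detection. Every line with Wt1 was therefore an ovary line, and F339 ROV was the 1 ovary line without it. Within the 3 high lines and within the 3 low lines, the intervals of neighbors in the order overlapped, and no line lay between 5.85 and 65.6 CPM. Wt1 (ENSMUSG00000016458.14) spans chr2:105126529-105173616 on the plus strand of GRCm38. The neighboring gene Wt1os, named as antisense but with no overlap in the annotation, was at 1.66 CPM in F319 ROV, 1.40 CPM in F364 ROV, 0.67 CPM in F326 ROV, 0.63 CPM in F364 LOV, 0.17 CPM in F318 LOV, and 0 in the other 6 lines.

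**Figure D1:**
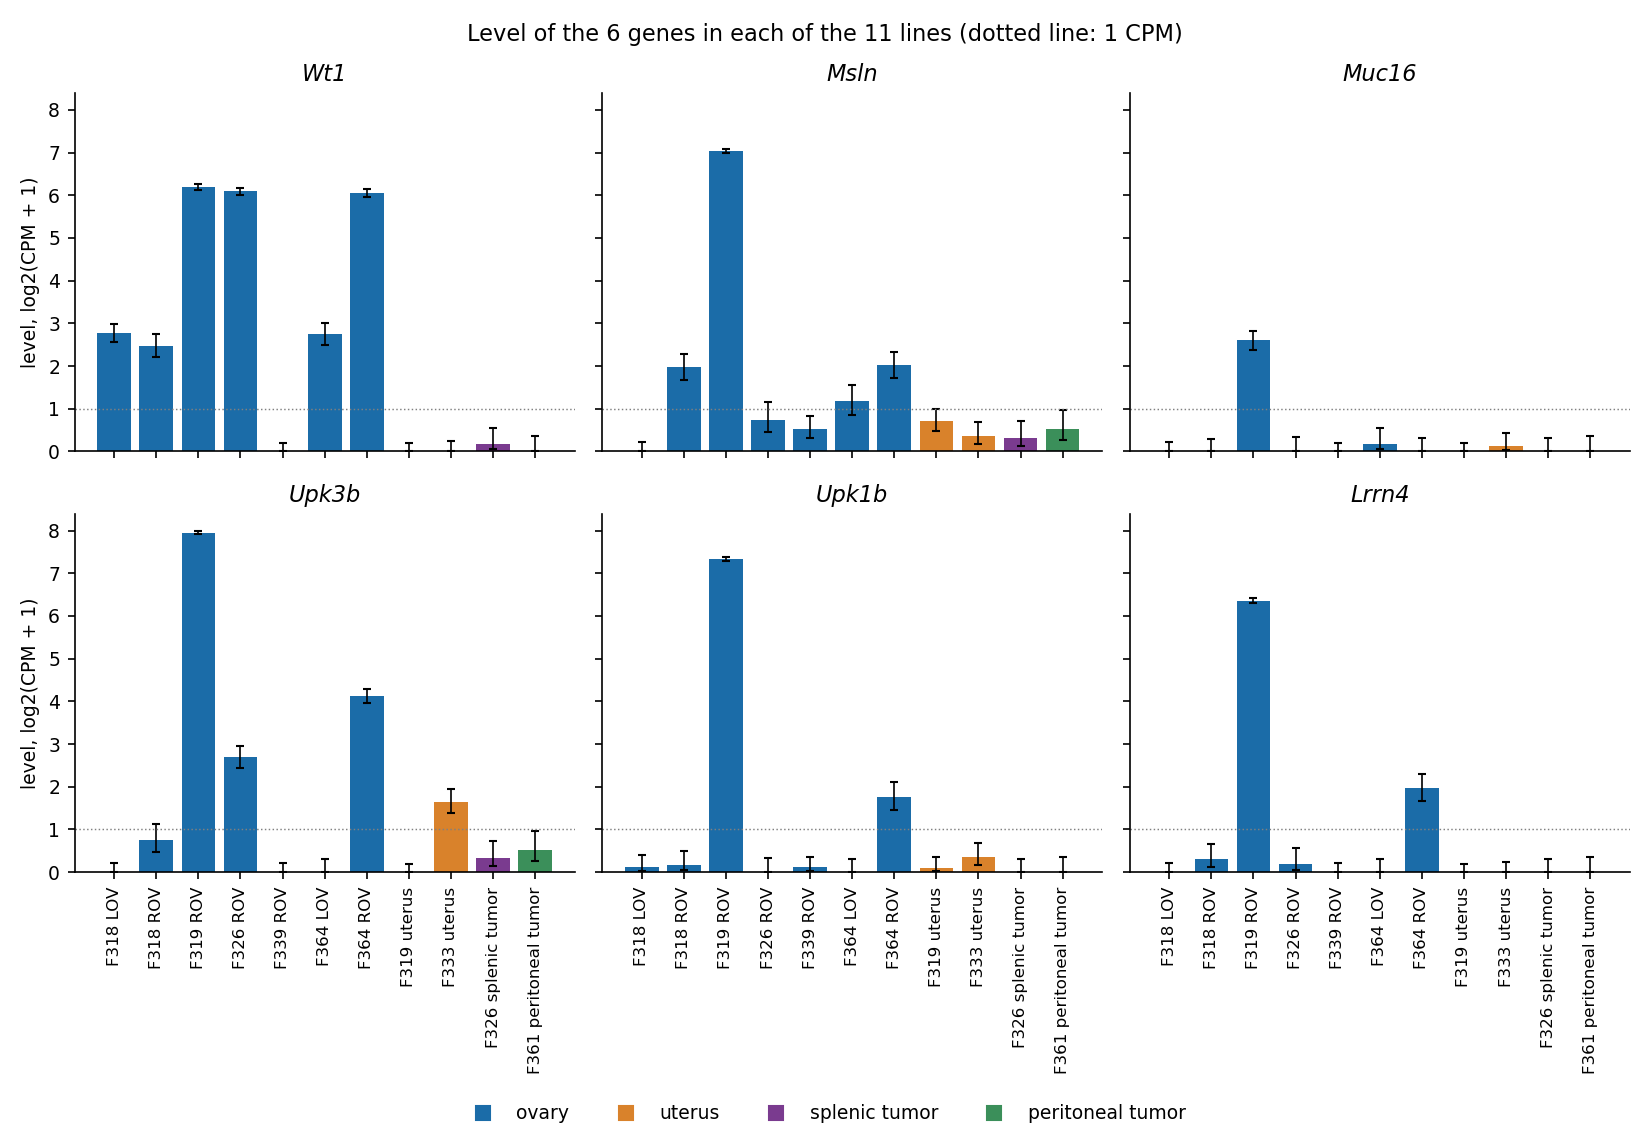
Level of each of the 6 genes in each of the 11 lines, as log2(CPM + 1) on the vertical axis, with bars colored by the organ of the line and error bars for the 95% Wilson interval of the single library. Wt1 was high in 3 ovary lines, while F319 ROV held the highest level of all 6 genes.

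Mesothelin and its binding mucin both had their highest level in F319 ROV. Msln, on the minus strand at chr17:25748613-25754378, was at 130.1 CPM in F319 ROV (125.5 to 134.9), 3.04 CPM in F364 ROV (2.30 to 4.04), 2.91 CPM in F318 ROV (2.21 to 3.83), and 1.27 CPM in F364 LOV (0.82 to 1.95). The other lines were below 1 CPM, at 0.67 CPM in F326 ROV, 0.63 CPM in F319 uterus, 0.44 CPM in the F361 peritoneal tumor line, 0.43 CPM in F339 ROV, 0.28 CPM in F333 uterus, 0.25 CPM in the F326 splenic tumor line, and 0 in F318 LOV. The level in F319 ROV was 42.7 times that in F364 ROV, and the 4 lines at 0.43 to 0.67 CPM could not be ordered by their counts of 6 to 17. Muc16, on the minus strand at chr9:18495455-18674530, was present in 1 line: F319 ROV had 113 counts or 5.06 CPM (4.21 to 6.08), F364 LOV and F333 uterus had 2 counts each, and the other 8 lines had 0. Muc16 has the longest transcript of the 6, with 26.4 kb of exon against 2.09 to 6.20 kb for the others, and in F319 ROV it was the lowest of the 6 both in CPM and per kilobase.

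Both uroplakins peaked in the same line. Upk3b, on the plus strand at chr5:136038496-136046487, was at 245.9 CPM in F319 ROV (239.5 to 252.5), 16.5 CPM in F364 ROV (14.6 to 18.6), 5.48 CPM in F326 ROV (4.41 to 6.80), and 2.14 CPM in F333 uterus (1.60 to 2.85). It was at 0.69 CPM in F318 ROV, 0.44 CPM in the F361 peritoneal tumor line, and 0.25 CPM in the F326 splenic tumor line, and had 0 counts in F364 LOV, F339 ROV, F318 LOV, and F319 uterus. The 4 lines above 1 CPM were separated from each other by intervals that did not overlap, and F333 uterus was the 1 line with Upk3b present and Wt1 at 0. Upk1b, on the minus strand at chr16:38773184-38800328, reached 161.2 CPM (156.1 to 166.6) in F319 ROV, with F364 ROV next at 2.41 CPM (1.76 to 3.31). All other lines held 0 to 6 counts of Upk1b, with 0.28 CPM in F333 uterus the highest of them. The step from F364 ROV to F319 ROV was 14.9-fold for Upk3b and 66.9-fold for Upk1b.

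Lrrn4, on the minus strand at chr2:132868305-132880891, had the same pair of leading lines as Upk1b. Its level fell 27.9-fold between them, from 81.3 CPM (77.6 to 85.1) in F319 ROV to 2.92 CPM (2.19 to 3.89) in F364 ROV. F318 ROV had 4 counts, F326 ROV had 2, and the other 7 lines had 0. Wt1 and Lrrn4 are both on chromosome 2, and they did not share a pattern, since F326 ROV was at 92.4% of the F319 ROV level for Wt1 and at 0.164% for Lrrn4. On the scale of level per length, Upk1b was at 77.2 CPM per kilobase of exon in F319 ROV, Upk3b at 69.7, Msln at 42.5, Lrrn4 at 21.9, Wt1 at 11.7, and Muc16 at 0.192. In this line, Msln, Upk3b, Upk1b, and Lrrn4 thus stood above Wt1 per length.

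Read by line, the 6 lines with Wt1 present carried 6, 5, 2, 2, 2, and 1 of the 6 genes. F319 ROV held all 6. F364 ROV held every gene but Muc16, although Msln, Upk1b, and Lrrn4 were at 1.49% to 3.59% of their F319 ROV level and Upk3b at 6.70%, while Wt1 was at 90.3%. F326 ROV, with nearly the same Wt1, held Wt1 and Upk3b. F364 LOV and F318 ROV held Wt1 and Msln, and F318 LOV held Wt1 alone. Of the 5 lines without Wt1, F333 uterus held Upk3b and the other 4 held none at 1 CPM, although Msln was above the limit of detection in all 5, at 4 to 17 counts. Summed over the 5 genes other than Wt1, the level was 623.6 CPM in F319 ROV, 24.9 in F364 ROV, 6.28 in F326 ROV, 3.94 in F318 ROV, 2.79 in F333 uterus, 1.39 in F364 LOV, and 0.0873 to 0.884 in the other 5 lines. F319 ROV held 93.1% to 98.6% of all reads of each of those 5 genes over the 11 lines and 40.9% of the reads of Wt1. In the 3 lines at 65.6 to 72.7 CPM of Wt1, the sum of the other 5 genes thus ran from 6.28 to 623.6 CPM.

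**Figure D2:**
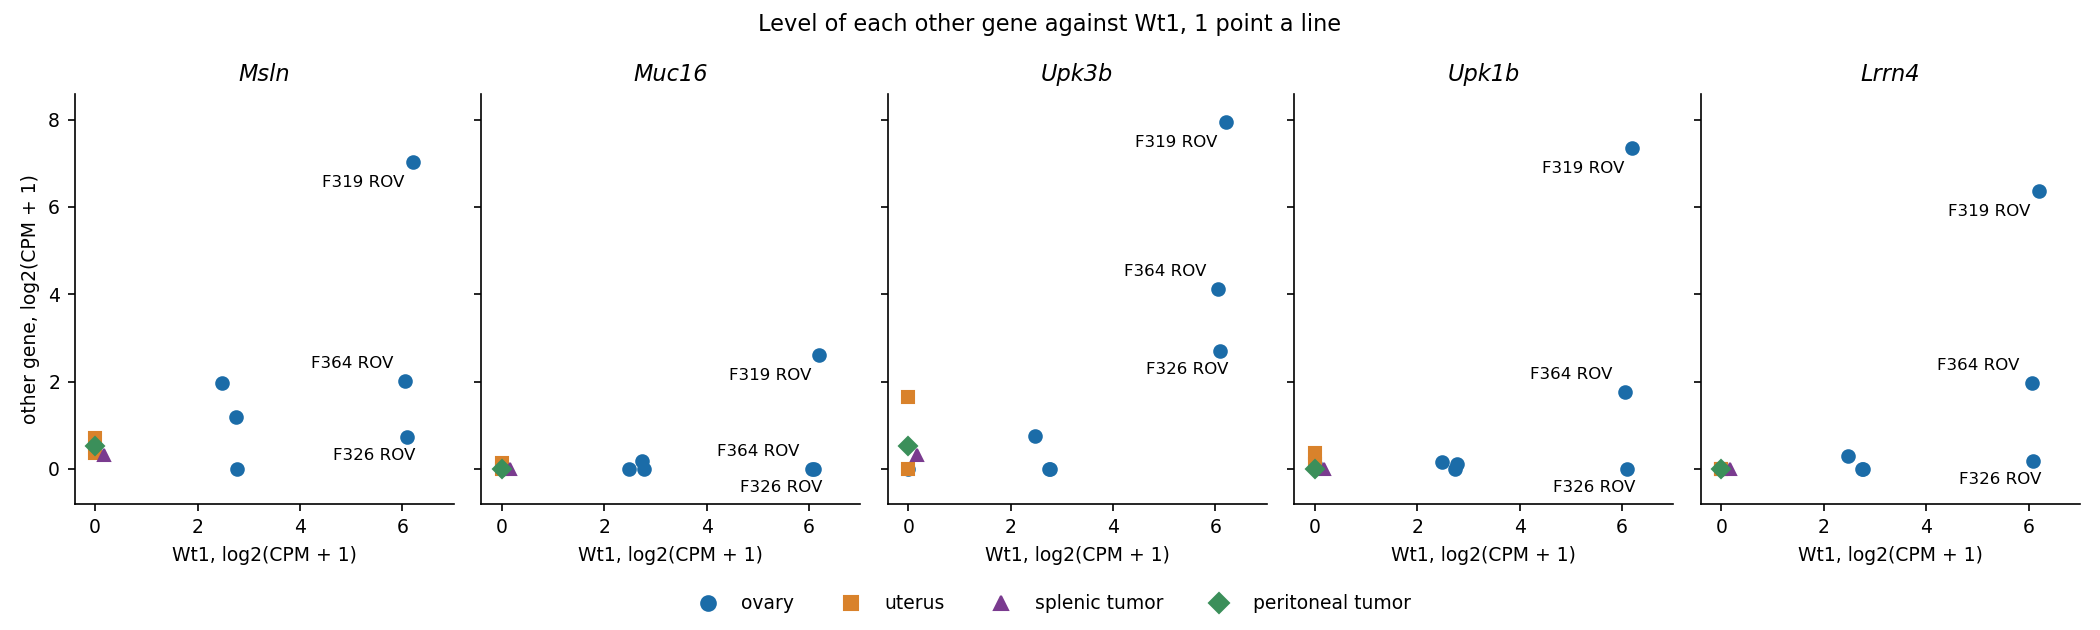
Level of Msln, Muc16, Upk3b, Upk1b, and Lrrn4 against Wt1, both as log2(CPM + 1), with 1 point for each line and the symbol giving the organ. The 3 lines on the right had 65.6 to 72.7 CPM of Wt1, and among them F319 ROV was the highest for each of the other 5 genes.

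A highest level at least 4-fold above every other line was not common in F319 ROV. Of 19117 genes with 10 or more counts in some library, 41 had it, or 0.214%, with the other lines counted at no less than 3 counts. The 41 included 5 of the 6 genes, Msln, Muc16, Upk3b, Upk1b, and Lrrn4, and not Wt1, for which F319 ROV was 1.08-fold above F326 ROV. Over the 11 lines, the number of genes with such a gap ran from 6 in F364 ROV to 109 in F319 uterus. Other genes among the 41 were named after their values were seen. Krt8, a keratin of simple epithelia, was at 52.7 CPM against 0.66 CPM in the next line, and its pseudogene Krt8-ps, at 5.69 CPM, may share its reads. Gpm6a was at 31.0 CPM against 1.65 CPM in F364 ROV. Ezr, which encodes the microvillus protein ezrin, was at 558.9 CPM against 119.9 CPM in F364 ROV. Pax8, a transcription factor of the oviduct epithelium, was at 3.04 CPM in F319 ROV and at most 0.26 CPM elsewhere.

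A further list of 18 mesothelial and ovarian surface genes, of which 17 were in the table, was read the same way. F319 ROV had the highest level for 10 of the 17, against 5.86% of the 19117 genes: Bnc1, Gpm6a, Nkain4, Rspo1, Krt8, Krt18, Krt19, Podxl, Cldn15, and Dpp4. Rspo1, a secreted activator of WNT signaling made by the ovarian surface, was at 24.5 CPM in F319 ROV, 1.87 CPM in F326 ROV, and 1.78 CPM in F364 ROV, and under 1 CPM in the other 8 lines. Bnc1, a zinc finger protein of epithelia, was at 21.4 CPM in F319 ROV, 9.28 CPM in F319 uterus, and 0 to 0.44 CPM elsewhere. Krt18, the partner of Krt8 in the keratin filament, was at 67.9 CPM in F319 ROV, 39.9 CPM in F364 ROV, and 5.82 CPM in F318 ROV, so that F364 ROV held Krt18 with Krt8 at 0.13 CPM. Podxl, a sialomucin of podocytes and mesothelium, was at 94.5 CPM in F319 ROV, 56.6 CPM in F326 ROV, 39.5 CPM in the F361 peritoneal tumor line, and 0.61 CPM in F318 LOV at the lowest.

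Exceptions within this list were as plain. Krt7 was highest in the uterus lines, at 40.5 CPM in F333 uterus and 16.6 CPM in F319 uterus, with 12.0 CPM in F319 ROV. Aldh1a2, which makes retinoic acid in the coelomic epithelium, was at 21.3 CPM in F333 uterus, 16.0 CPM in F364 LOV, and 11.9 CPM in F319 ROV. Efemp1 was at 64.4 CPM in F364 LOV, 51.6 CPM in F319 ROV, and 50.8 CPM in F339 ROV, the last of which had no Wt1. Calb2, which encodes the mesothelial marker calretinin, reached 0.35 CPM at most and had 0 counts in F319 ROV, and Lgr5, a marker of stem cells of the ovarian surface, reached 0.80 CPM at most. Counting genes at 1 CPM or more, F319 ROV held 15 of the 17, F326 ROV 10, F364 ROV 9, F339 ROV and the F361 peritoneal tumor line 8 each, and the other 6 lines 3 to 7.

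**Figure D3:**
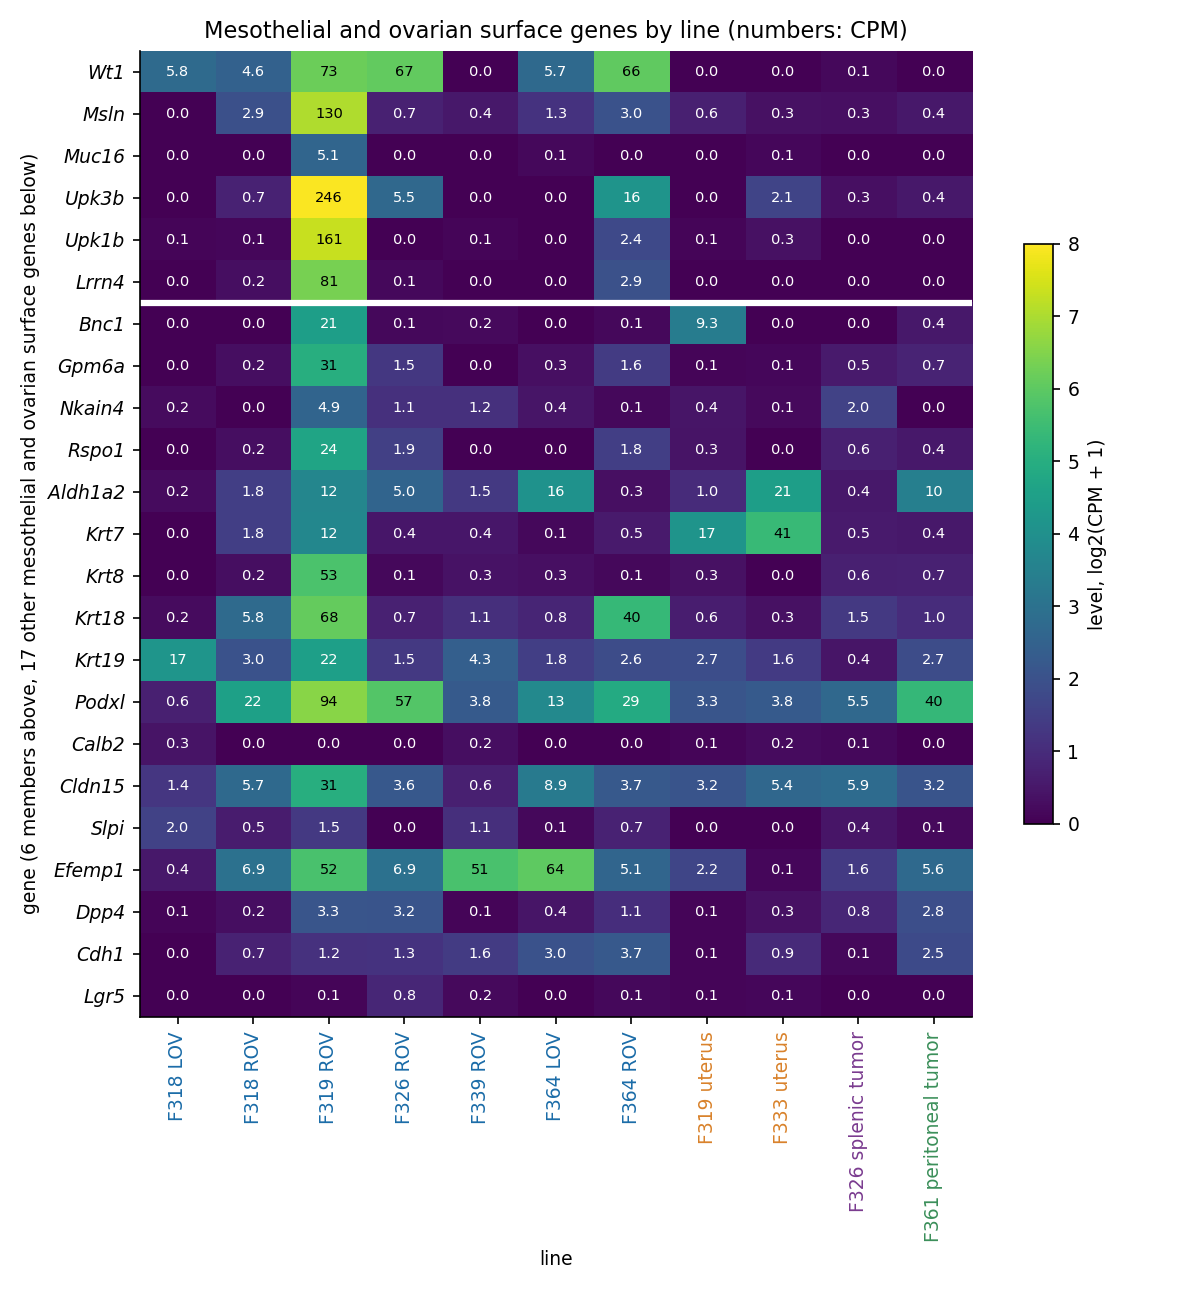
Heat map of the 6 genes (above the white line) and 17 other mesothelial and ovarian surface genes, with 1 column for each line, color for log2(CPM + 1), and the CPM printed in each cell. The F319 ROV column is the highest for all 6 genes and for 10 of the 17 others, while Krt7 was highest in F333 uterus and Calb2 stayed under 1 CPM in every line.

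Lines of the same mouse were compared for the 4 mice with 2 lines each, by the ratio of CPM with its counting interval and no test, since each line is 1 library. In mouse F364, Wt1 was 11.5-fold higher in ROV than in LOV (9.29 to 14.3) and Msln 2.41-fold (1.43 to 4.05). Against 0 counts in F364 LOV, Upk3b was at least 86.9-fold higher in ROV, Lrrn4 at least 15.4-fold, and Upk1b at least 12.7-fold. In mouse F318, Wt1 was 1.28-fold higher in LOV than in ROV, with an interval of 0.971 to 1.69 that includes 1. Msln differed in the other direction there, at 51 counts in ROV and 0 in LOV, or at least 22.2-fold higher in ROV. The F318 ovary lines thus had Wt1 levels that counting error could not separate and Msln levels that it did.

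Mouse F319 gave the widest contrast, between an ovary and a uterus line. Wt1 was at least 655.5-fold higher in F319 ROV than in F319 uterus, where it had 0 counts. The bounds for Upk3b, Lrrn4, and Muc16 were at least 2217-fold, 732.6-fold, and 45.6-fold, Msln was 207.0-fold higher (128.5 to 333.4), and Upk1b, with 2 counts in the uterus line, was 2180-fold higher (545.1 to 8721). In mouse F326, Wt1, with 2 counts in the splenic tumor line, was 530.7-fold higher in ROV than there (132.5 to 2125). Upk3b was 21.6-fold higher (7.93 to 59.0), and Msln 2.64-fold with an interval of 0.827 to 8.41. Libraries 6 and 10 of mouse F319 lie on either side of the split by library number, with 10.7% and 0.627% of counts on muscle fiber genes, and so do libraries 7 and 9 of mouse F318, with 6.41% in ROV and 0.144% in LOV. The part of that difference in the ratios of both mice was not tested. Both F326 libraries and both F364 libraries lie in 1 to 7, where the muscle share was 9.69% to 11.9%. Taking muscle genes out of the totals moved none of the 18 ratios and bounds by as much as 1.5 times.

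Regulators of the coelomic epithelium and gonad separated the 3 lines with high Wt1. Gata4, a GATA factor of the gonad, was at 89.4 CPM in F326 ROV, 72.9 CPM in F364 ROV, and 9.76 CPM in F319 ROV, and Nr5a1, which encodes the steroidogenic factor SF-1, was at 38.4, 18.6, and 0.36 CPM in the same order. Gata6 ran the other way, at 3.61 CPM in F326 ROV, 4.44 CPM in F364 ROV, and 63.1 CPM in F319 ROV. Foxl2, the transcription factor of granulosa cells, was at 7.54 CPM in F326 ROV, 7.23 CPM in F364 ROV, 2.74 CPM in F318 ROV, 0.72 CPM in F319 ROV, and 0.63 CPM in F364 LOV, and at 0 to 0.15 CPM in the other 6 lines. Star, which carries cholesterol into mitochondria for steroid synthesis, was at 48.7 CPM in F326 ROV and at 1.77 to 8.88 CPM in the others. Not every granulosa gene had this order. Inhba, which encodes an activin subunit, was at 1.74 CPM in F326 ROV, 12.2 CPM in F364 ROV, and 33.2 CPM in F319 ROV, and Amh, the anti-Müllerian hormone, was at 3.94, 0.32, and 1.25 CPM in the same order of lines. The granulosa and theca list summed to 144.7, 54.6, and 70.1 CPM there. Defining granulosa genes were not complete in any line: Esr2 reached 0.29 CPM at most and Lhcgr 0.13 CPM, and Fshr and Cyp19a1 were not analysed here.

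**Figure D4:**
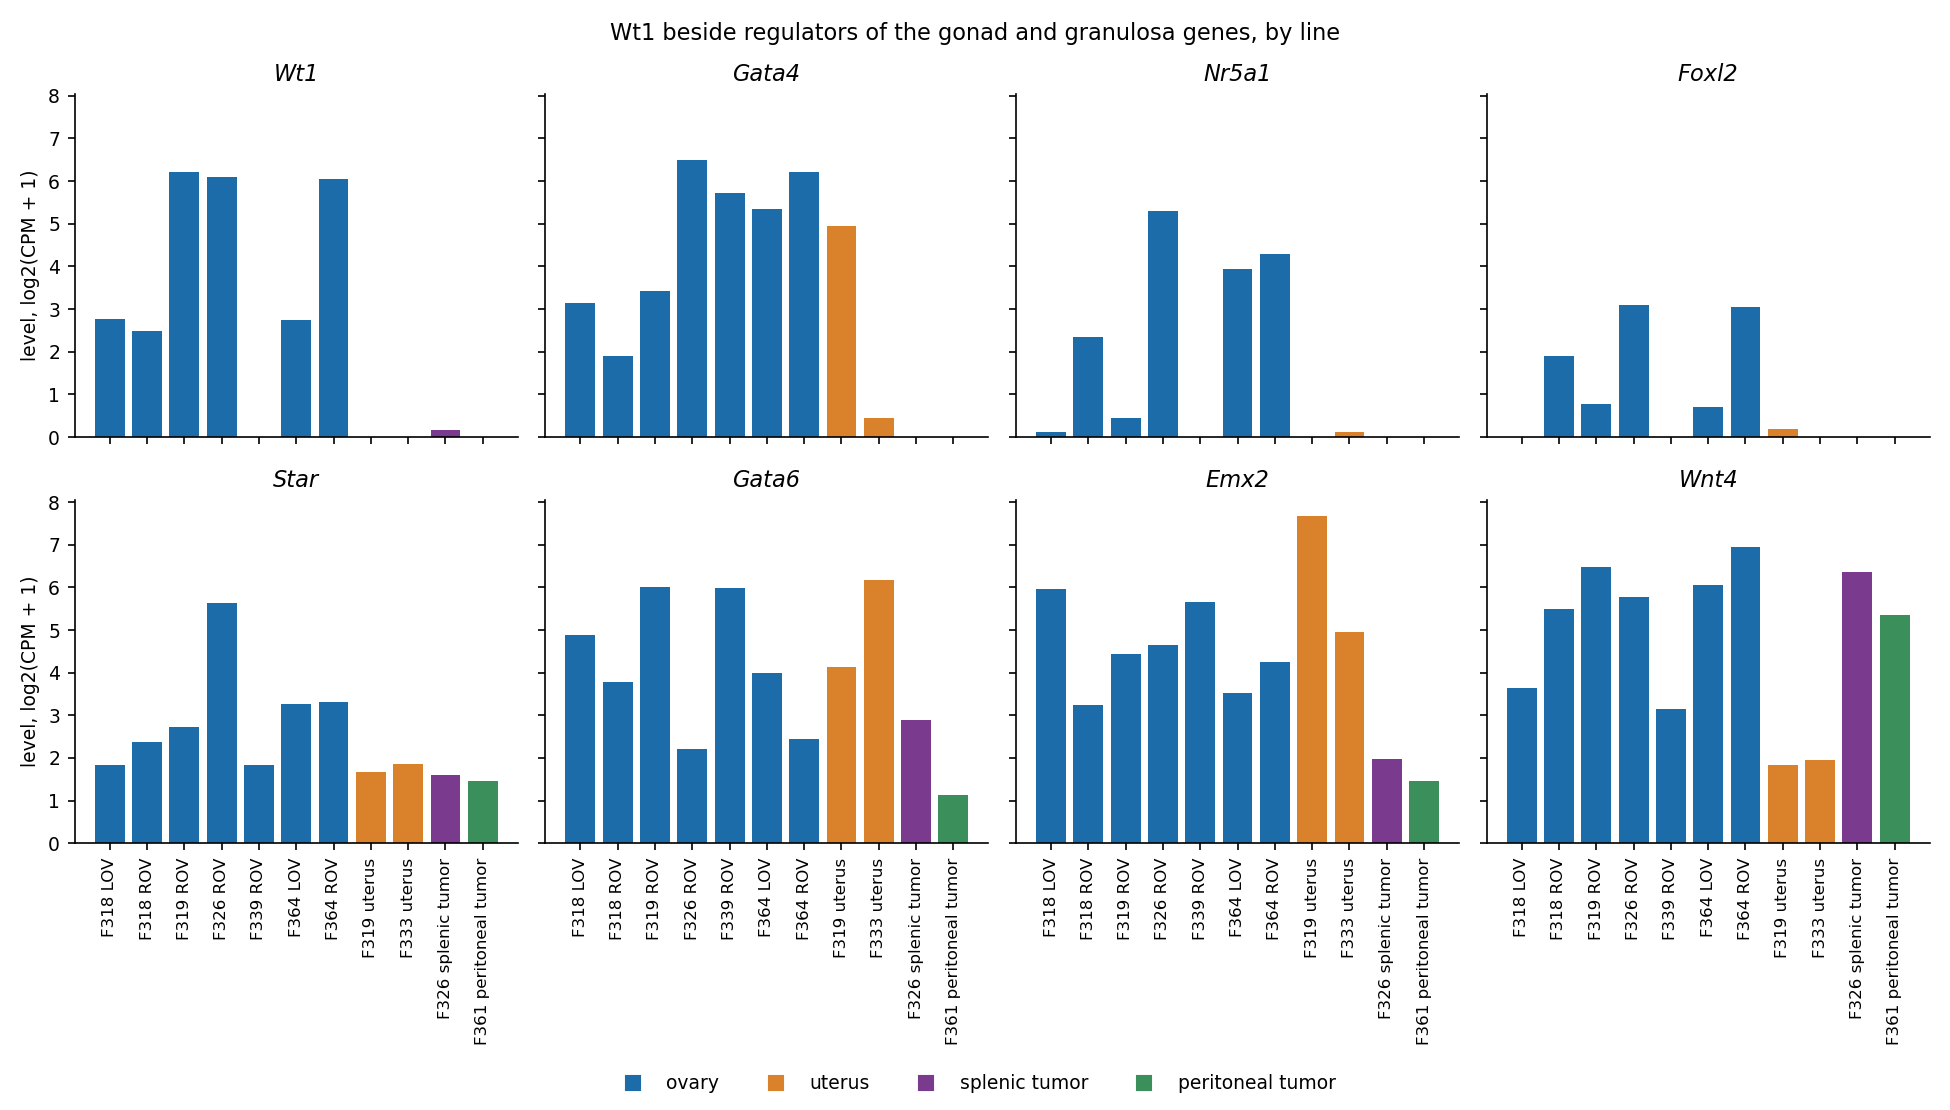
Level of Wt1 beside 7 genes of the gonad by line, as log2(CPM + 1), with bars colored by the organ of the line and 1 library for each bar. Gata4, Nr5a1, Foxl2, and Star were higher in F326 ROV and F364 ROV than in F319 ROV, and Gata6 was lower, at a similar Wt1 level.

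Other regulators did not follow Wt1. Gata4 was at 52.1 CPM in F339 ROV and 29.7 CPM in F319 uterus, both at 0 counts of Wt1, and at 0 counts in both tumor lines. Emx2 was highest in F319 uterus, at 202.8 CPM, and lowest in the F361 peritoneal tumor line, at 1.77 CPM. Tcf21 and Lhx2 stayed under 1 CPM in every line. Wnt4, a signal of ovarian differentiation, lay between 39.7 and 122.9 CPM in the first 7 libraries, against 2.59 to 11.6 CPM in libraries 8 to 11. Among genes tied to WT1 function, Basp1, which encodes its corepressor, was at 9.75 CPM in F326 ROV, 42.0 CPM in F364 ROV, and 151.2 CPM in F319 ROV, and highest, at 528.9 CPM, in F318 LOV and F333 uterus.

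Oviduct epithelium, the cell type in which the transgene promoter acts, was represented by part of its markers. Of its 10 markers, 0 to 4 were at 1 CPM or more in a line, and F319 ROV, with 4, had the most. Ovgp1, the gene of that promoter, was at 1 CPM or more in 10 lines, at 0.83 CPM in F318 LOV and up to 6.52 CPM in the F326 splenic tumor line, and Elf3 reached 5.08 CPM, in F318 ROV. Epcam reached 2.12 CPM, in F339 ROV, and Wfdc2, Cldn3, Cldn4, and Pax2 stayed under 1 CPM in every line. Sox17 lay between 13.4 and 55.3 CPM in the first 7 libraries and did not exceed 0.74 CPM in the others. Ovgp1, Elf3, and Sox17 were the 3 markers that passed the filter between library numbers, and all 3 were called higher in libraries 1 to 7 by edgeR, against 29.9% of all genes tested. Stromal fibroblast genes summed to 337.1 CPM in F364 ROV, 1002 CPM in F326 ROV, and 1906 CPM in F319 ROV, and to 9139 to 19322 CPM in the uterus lines, F339 ROV, and F318 LOV. They summed to 10609 CPM in F318 ROV, which held 2 of the 6 genes, and to 4516 CPM in the F326 splenic tumor line, which held none. Collagen genes such as Col1a1 made up most of the larger sums. Dcn, of the same list, ran the other way, with 160.1 to 323.4 CPM in the first 7 libraries and at most 31.8 CPM in the rest, and 2 of the 8 genes were called higher and 2 lower in libraries 1 to 7 by edgeR. The part of the stromal genes in the members' levels was not tested.

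Relatives and neighbors of the 6 genes were also read line by line. Of 12 family members, none was highest in F319 ROV, the highest line for 5.86% of 19117 genes with 10 or more counts in some library. With 12 genes, a count of 0 is near that share and is no result about the family. Among the other uroplakins of the urothelial plaque, Upk2 and Upk3a reached 0.96 and 0.13 CPM at most, Upk1a was at 1 CPM or more in 4 lines, with 1.54 CPM in F326 ROV the highest, and was called higher in libraries 1 to 7 (log2 fold change 1.75, adjusted p 0.00436 by edgeR), and Upk3bl, the neighbor of Upk3b on chromosome 5, reached 0.41 CPM. Lrrn1 was at 17.5 CPM in F364 LOV and 5.61 to 11.9 CPM in the other libraries 1 to 7, Mslnl reached 0.38 CPM, and the membrane mucin Muc1 stayed at 0.38 to 1.65 CPM. Among the 24 annotated genes next to the 6, taken as the nearest 2 in the table on each side, Narfl, beside Msln, was at 17.9 to 69.1 CPM with its highest level in the F361 peritoneal tumor line. B4galt4, beside Upk1b, was at 26.8 CPM in F319 ROV and 10.3 CPM in F364 ROV, a smaller step than that of Upk1b. Rcn1, beside Wt1, was lowest in F364 ROV, at 16.9 CPM, and highest in F318 LOV, at 434.7 CPM.

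Likeness of profile was measured as the root mean square difference over the 11 lines between log2(CPM + 1) values centered on each gene's mean, so that a smaller value is a closer match. This is a description with no p, over lines of 1 library each, some of them from the same mouse. From each of the 6, 12004 other genes were ranked: those that passed a filter for counts in all lines, and the members, added by name. Each of the 6 had 0 counts in 1 to 8 lines. They were thus set mostly against genes counted in every line. Upk1b and Lrrn4 were each other's nearest gene, at 0.32, and Msln was nearest to Lrrn4, at 0.46, and then Upk1b, at 0.58. Upk3b was nearest to Lrrn4 (0.91), Upk1b (0.94), and Msln (1.12). These genes had 93.1% to 98.6% of their reads in F319 ROV, so the distances rest largely on that library. Without it, a choice made after seeing the data, Upk1b and Lrrn4 were still each other's nearest gene, at 0.16. Their counts were then 38 and 46 in F364 ROV and 0 to 6 in every other line, so this match rests on F364 ROV. The other members lost their places in rank, although not every distance changed much. That of Msln and Lrrn4 went from 0.46 to 0.48, that of Msln and Upk3b from 1.12 to 1.15, and that of Msln and Muc16 from 1.22 to 0.65. Lrrn4 ranked 41 of 12004 genes from Msln and 7 from Upk3b, Upk1b ranked 157 from Msln, Muc16 ranked 1045 from Msln, and Upk3b, at rank 3 or 4 with all lines, ranked 8236 from Msln, 7635 from Upk1b, and 6051 from Lrrn4. Among the same 12004 genes over all 11 lines, the next gene for each of Msln, Upk3b, and Upk1b, beyond the 6 genes, was Ezr, at 1.10, 1.42, and 1.28. The nearest genes of Muc16 were Adgrb2, Fam46c, and C4a, at 0.46 to 0.54. Over 19116 genes with 10 or more counts in some library, a choice made after seeing the data, the nearest of Muc16 were instead Gm11351 (0.13), Krt8-ps (0.15), Plek2 (0.20), Aass (0.22), and Gata5 (0.24). In that wider set the next gene beyond the 6 was Krt8 for Msln (0.71) and Upk1b (0.77), Gpm6a for Lrrn4 (0.63), and Crb2 for Upk3b (1.03).

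Wt1 was a looser match. Its nearest gene was at 1.61, and Upk3b, at 1.73, ranked 6 of 12004 genes, followed by Lrrn4 at rank 39, Msln at 59, Upk1b at 208, and Muc16 at 586. Ranked from the other side, Wt1 was 8 of 12004 from Upk3b, and 5164 from Upk1b, 6142 from Lrrn4, 6594 from Msln, and 11832 from Muc16. The 10 nearest were Adgrg1, Pard6b, Daam2, Shroom3, Edn1, Upk3b, Baiap2l1, Star, Mbp, and Gstm2. These ranks moved with the genes admitted: over the wider set of 19116 genes, Upk3b ranked 21, Lrrn4 113, Msln 181, Upk1b 524, and Muc16 1185. The nearest genes were then Foxa2, Cgn, Stk26, Dsg2, Crb2, Ildr2, Folr1, and Dhh, ahead of Adgrg1 and Pard6b. Cgn, which encodes the tight junction protein cingulin, was at 11.3 CPM in F364 ROV, 9.8 CPM in F319 ROV, and 6.0 CPM in F326 ROV, and at 0 to 1.1 CPM in the other lines. Dsg2, a desmosomal cadherin, was at 37.3 CPM in F364 ROV, 25.1 CPM in F326 ROV, and 1.5 CPM in F319 ROV. Crb2, an apical polarity protein of podocytes, was at 24.8 CPM in F319 ROV, 8.8 CPM in F326 ROV, and 8.5 CPM in F364 ROV, and at most 2.0 CPM elsewhere.

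By organ, the 2 uterus lines were compared with the 7 ovary lines. Wt1 averaged 31.7 ± 34.6 CPM (SD, n = 7) in the ovary lines and was at 0 in both uterus lines, so it was at least 253.1-fold higher in the mean of the ovary lines, with the floor averaged over the uterus libraries. Lrrn4 was at least 96.6-fold higher by the same measure, a mean carried by F319 ROV. With edgeR's quasi-likelihood test, 0 of 17446 genes were called at an adjusted p under 0.05 (0%), none of the 5 members tested among them, while 2308 had an unadjusted p under 0.05 and DESeq2 called 1315. Wt1 had a log2 fold change of -12.54 (SE 4.06, 95% interval -21.76 to -3.31), with an unadjusted p of 0.0134 and an adjusted p of 0.359 by edgeR. Without F319 uterus or without F333 uterus the interval included 0, at -25.56 to 0.71 and -25.34 to 0.30. It was the 1 member of 5 that was lower at an unadjusted p under 0.05, against 8.51% of all genes. DESeq2 called Wt1, at an adjusted p of 8.06e-05. The other 4 had log2 fold changes of -5.29 to -11.04 with unadjusted p of 0.0966 to 0.214 by edgeR. The groups overlapped for each of the 5, for Wt1 through F339 ROV alone. Without F319 ROV, the log2 fold changes of Msln and Upk3b were -1.88 and -2.10, and Upk1b and Lrrn4 no longer passed the filter. Without F333 uterus that of Upk3b was -12.70. DESeq2 gave -1.95 for Msln, -2.14 for Upk3b, -1.68 for Upk1b, and -6.58 for Lrrn4. Muc16 did not pass the filter on low counts. Both uterus lines are in libraries 8 to 11. Between them and the 2 ovary lines of libraries 8 to 11, the log2 fold change of Msln was 1.04, the opposite direction.

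The tumor lines gave a similar picture against the 7 ovary lines, which both comparisons share. Wt1 was at 0.13 CPM in the F326 splenic tumor line and 0 in the F361 peritoneal tumor line. By edgeR, 0 of 16768 genes were called (0%), none of the 5 members tested, with 1371 at an unadjusted p under 0.05 and 302 called by DESeq2. The log2 fold change of Wt1 was -8.64 (SE 3.16, 95% interval -15.72 to -1.57), with an unadjusted p of 0.0217 and an adjusted p of 0.561 by edgeR. Without the F326 splenic tumor line it was -12.32, with an interval of -26.26 to 1.63, and without the F361 peritoneal tumor line -7.80, with an interval of -17.66 to 2.05, both of which include 0. Wt1 was again the 1 member of 5 lower at an unadjusted p under 0.05, against 6.49% of all genes, and DESeq2 called it at an adjusted p of 0.00352. The other 4 had log2 fold changes of -5.58 to -11.75 and unadjusted p of 0.125 to 0.147 by edgeR. Without F319 ROV, those of Msln and Upk3b were -1.82 and -3.38, and Upk1b and Lrrn4 did not pass the filter. DESeq2 gave -1.78 for Msln, -3.33 for Upk3b, -5.01 for Upk1b, and -5.31 for Lrrn4. Against tumor lines at 0 counts, the mean of the ovary lines was at least 114.0-fold higher for Upk1b, 58.8-fold for Lrrn4, and 3.61-fold for Muc16, each mean set largely by F319 ROV. Both tumor lines are in libraries 1 to 7, with muscle shares of 9.69% and 12.1%. A comparison kept within libraries 1 to 7 gave Wt1 a log2 fold change of -9.07 with an adjusted p of 0.264 by edgeR.

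**Figure D5:**
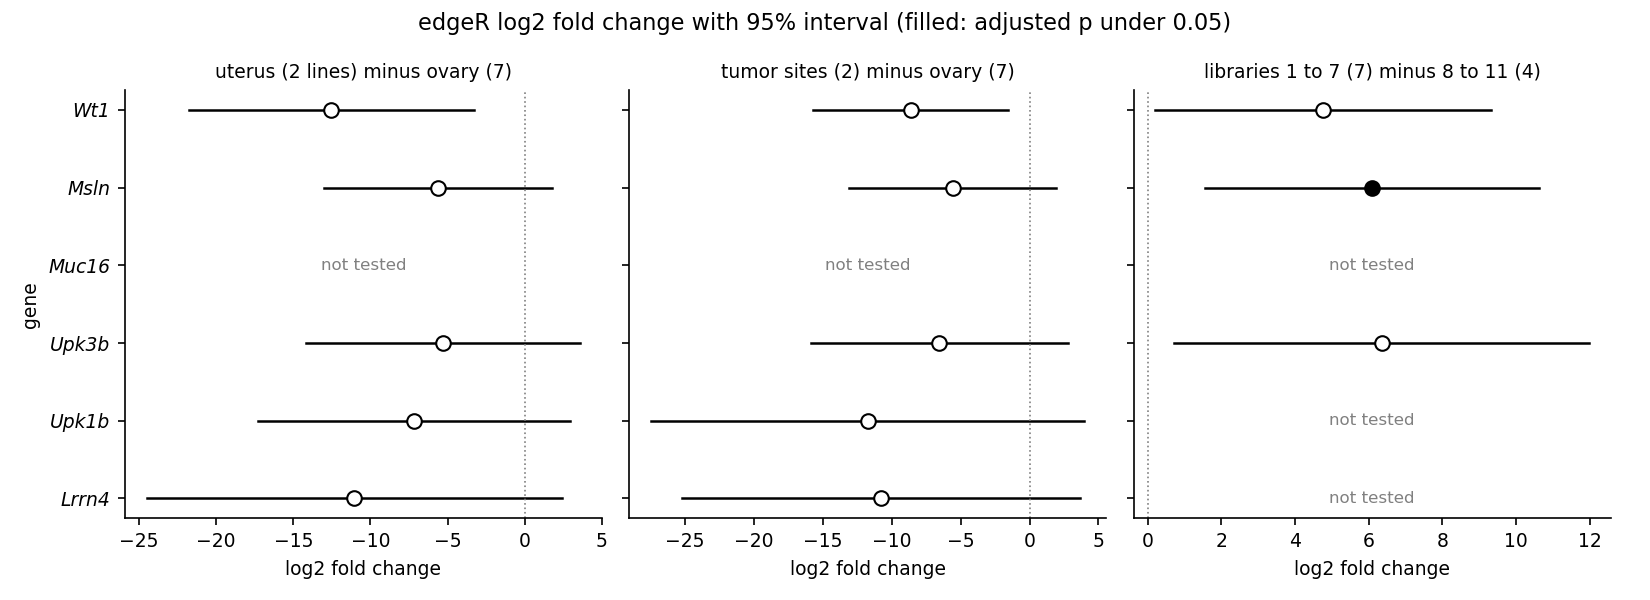
Log2 fold change of each gene by edgeR (horizontal axis), with its 95% interval, in the 3 comparisons, where a filled point has an adjusted p under 0.05 and an open point does not. Wt1, at -12.54 and -8.64, has open points with intervals below 0 for the uterus and tumor lines, Msln was the 1 filled point, and fold changes of genes at 0 in a whole group depend on the prior count of the fit and are no bounds.

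Library number was the third comparison, because libraries 1 to 7 and 8 to 11 differed so widely. By edgeR, 9337 of 15954 genes were called, with 4769 of them, or 29.9% of those tested, higher in libraries 1 to 7. With the mouse as a block, which was chosen after seeing the data and rests on the lines of mice F318 and F319, 3028 were called, Msln among them at a log2 fold change of 8.04 and an adjusted p of 0.00397 by edgeR. Of the 3 members that passed the filter, Msln was called higher in libraries 1 to 7, with a log2 fold change of 6.10 (SE 2.08) and an adjusted p of 0.0243 by edgeR. Its level ran from 0.25 to 130.1 CPM (median 1.27) in the first group and from 0 to 0.63 CPM in the second, so the groups overlapped. Without F319 ROV the log2 fold change of Msln was 2.43 and was still called. With the 7 ovary lines alone the adjusted p was 0.0914, and leaving out F339 ROV, F318 LOV, or F333 uterus gave 0.0534 to 0.0582 by edgeR. Upk3b had a log2 fold change of 6.35 with an adjusted p of 0.0509 and Wt1 one of 4.77 with an adjusted p of 0.0675 by edgeR. Neither passed the threshold. Upk3b passed it without F364 LOV, F318 ROV, the F361 peritoneal tumor line, F333 uterus, or the F326 splenic tumor line, at an adjusted p of 0.04 to 0.0465 by edgeR, and with the lines of a mouse within a group summed to 1 library, at 0.0389. Its log2 fold change was 3.18 without F319 ROV, 12.59 without F333 uterus, and 3.02 by DESeq2. Without the filter on low counts, Upk1b and Lrrn4 were also called higher in libraries 1 to 7, at adjusted p of 0.0422 and 0.0336 by edgeR. Those 2 calls rest largely on F319 ROV, which held 98.6% and 97.2% of the reads of these genes. The median of Upk1b was 0 CPM in libraries 1 to 7 and 0.083 CPM in libraries 8 to 11. Wt1 passed the threshold without the F361 peritoneal tumor line, at an adjusted p of 0.0454, and without F318 LOV, at an adjusted p of 0.0160 by edgeR, where its log2 fold change was 12.33. Among the ovary lines, the 5 with lower library numbers held 4.57 to 72.7 CPM of Wt1, and the 2 with higher ones 0 and 5.85 CPM. The tumor lines, also in libraries 1 to 7 with muscle shares as high, held 0 of the 6 genes at 1 CPM. The part of the muscle share in the members' levels was not tested. Of the 13 other mesothelial genes tested, 6 were called higher in libraries 1 to 7 and none lower by edgeR, among them Gpm6a (log2 fold change 6.99), Podxl (4.02), and Dpp4 (4.01). Endothelial genes moved with the same split: 4 of 6 were called higher and none lower, Pecam1 at a log2 fold change of 4.45, and the list summed to between 87.5 and 330.6 CPM in the first 7 libraries, with 226.6 CPM in F339 ROV and 2.44 to 17.4 CPM in the rest. Podxl is also made by endothelium, and the part of these cells in its level was not tested. No uterus library is numbered 1 to 7.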

How the data were processed

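RNA of 11 OvTrpMyc lines was measured by poly(A) RNA sequencing, 1 library for each line. The authors aligned paired reads to GRCm38 (mm10, Ensembl annotation) with STAR, removed PCR duplicates with SAMtools, and deposited raw featureCounts counts per gene, without normalization, for all 11 libraries. Tool versions and the strand setting are not given in the sources used here. Lines were grouped by organ from their titles, and library numbers were taken from the descriptions. CPM is the count divided by the library total and scaled to 1000000.

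Counts were tested with edgeR 4.0.16 (TMM, filterByExpr, quasi-likelihood test) in R 4.3.3, adjusted by the Benjamini-Hochberg method over all genes tested, with a threshold of 0.05. DESeq2 1.42.0 was an alternative. SE is the log2 fold change divided by the root of the F statistic. The test was checked on simulated data. Levels and likeness were computed in Python 3.11.15, with a pseudocount of 1. Replicates are separate lines, lines of 1 mouse were taken as independent, and p-values measure the spread between these lines. Positions and exon lengths are those of GENCODE M21, and promoters those of RefSeq. Named were the 6 genes, the genes nearest to them, their chromosomal neighbors, and, from marker lists, genes called, highest, lowest, or confined to few lines, while other genes of the lists were picked after their values were seen. The members, lists, and alternatives were chosen with earlier results of these data known, and the motifs after the sequences were seen. Alternatives covered the normalization, the filter, the muscle genes, the library left out, 1 library per mouse, the mouse as a block, the library numbers, the pseudocount, and the level called present. No column of the table was without a sample. Pdpn, Nphs1, Fshr, and Cyp19a1 were not analysed here.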

Additional observations from a re-analysis of the deposited data

Results flagged for a closer look

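F319 ROV stood apart from the other 6 ovary lines in log2(CPM + 1) for 9 of the 21 genes examined, which are the 6 genes and the others of the mesothelial list that had counts enough. The measure is the gap from the highest line to the next, divided by the range of the 7 ovary lines, and a value above 0.568 marks a line far from the others. Chance marks about 1 in 20 groups of normally distributed values, a rate that need not hold for genes near the limit of detection. Muc16, for instance, had 0 counts in 5 of the 7 ovary lines, so 1 expressing line alone gives a large gap. The measure was taken for these 21 genes only, with no share over all genes beside it. Genes of 1 line are not independent, and the 9 marked genes restate the levels above and are no separate support. The gap was 0.713 for Msln, 0.934 for Muc16, 0.759 for Upk1b, and 0.690 for Lrrn4. Among the other mesothelial genes it was 0.953 for Bnc1, 0.932 for Krt8, 0.719 for Gpm6a, 0.674 for Rspo1, and 0.595 for Krt7. Wt1 and Upk3b were not marked. F319 ROV is 1 library, and no second library of this line was analysed here.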

How the results depend on the processing

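The number of lines at 1 CPM or more was unchanged for each of the 6 genes when muscle genes were taken out of the totals and with TMM-scaled CPM. With more than 3 counts as the level, Msln was present in 10 lines and Upk3b in 7. DESeq2 called 1315 genes between uterus and ovary lines and 302 between tumor and ovary lines, against 0 by edgeR, and a fit without the filter called 2 in the first. Leaving out single libraries gave 0 to 1 called genes in the first comparison, 0 to 0 in the second, and 8526 to 9311 between library numbers. The log2 fold change of Msln between uterus and ovary turned to 1.04 within libraries 8 to 11. Of the members' other fold changes with 1 library left out, 105 kept their direction and their side of the threshold, 7 passed it, and 3 no longer did. For uterus and for tumor against ovary, Upk1b and Lrrn4 have no value without F319 ROV or without F364 ROV, since they then fail the filter on low counts.

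Ranks of likeness to Wt1 moved with several settings. With a pseudocount of 0.1, Upk3b ranked 32, Upk1b 408, and Lrrn4 5. With a pseudocount of 5, Upk3b ranked 14, Lrrn4 71, Msln 187, Upk1b 501, and Muc16 1081. By Pearson's r, Upk3b ranked 11, Lrrn4 101, and Msln 143. In libraries 1 to 7 alone, Upk3b ranked 26, Lrrn4 299, Msln 457, and Upk1b 1551. Over the wider set of genes the ranks were 21, 113, 181, 524, and 1185 for Upk3b, Lrrn4, Msln, Upk1b, and Muc16. Leaving out single libraries gave ranks of 2 to 59 for Upk3b, 2 to 367 for Lrrn4, 4 to 611 for Msln, 12 to 1275 for Upk1b, and 116 to 3248 for Muc16. The cause of these moves was not tested. The mouse as a replicate block, chosen after seeing the data, gave 0 called genes for uterus and for tumor against ovary and 3028 between library numbers by edgeR. The block leaves 1 mouse with lines in both groups for uterus and for tumor, and 2 for library numbers. It changed the call of no member. Between tumor and ovary the log2 fold change of Upk1b became 0, where both F326 lines had 0 counts, that of Msln -1.32, that of Upk3b -4.35, and that of Lrrn4 -4.50. Between uterus and ovary, Upk3b gave -15.38, Lrrn4 -13.78, Upk1b -11.24, Wt1 -13.62, and Msln -7.95. Upk3b gave 14.34 between library numbers. The limit of detection, 0.111 to 0.221 CPM, sets what can be said of the lines at 0, and the level of a line rests on 1 library.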
